A study of Mus musculus with 4 samples.

Results

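The mitochondrial respiratory chain was represented on these arrays by 83 gene names, read by 114 probes, of 27962 gene names and 41174 probes in all. The members were chosen by name and not by any measured value: names that begin with Nduf (complex I), Uqcr (complex III), Cox4 to Cox8 (complex IV) or Atp5 (complex V, ATP synthase), together with Sdha, Sdhb, Sdhc and Sdhd (complex II) and Cyc1 (complex III). By these names complex I had 37 genes, complex II 4, complex III 8, complex IV 18 and complex V 16. For 3 of the names the protein is not a subunit of any of these complexes: Ndufaf1 is an assembly factor of complex I, Cox4nb takes its name from its place beside the Cox4 gene, and Atp5s is a factor associated with ATP synthase. Ndufa4 was counted in complex I by its name, although its protein is now known as a subunit of complex IV.

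The mice were C57BL/6J males aged 7 weeks, per the design text. The control group ate a purified diet with 0.03% nucleic acids, and the nucleoprotein group ate the same diet with 1.2% of a nucleoprotein product (S-nuclegen), which brought it to 0.5% nucleic acids. After 4 weeks on the diet every mouse received 1 injection of lipopolysaccharide (LPS, from the outer membrane of bacteria, a trigger of systemic inflammation) at 10 mg/kg, and liver and spleen were taken 6 h later. RNA was pooled within each diet and organ, and the 2 pools of an organ were hybridised against each other on 2 arrays with the dyes exchanged. Array 1 of each organ carried the control pool in Cy3 (green) and the nucleoprotein pool in Cy5 (red), and array 2 the reverse. The number of mice per pool is not given in the sources used here. The 2 arrays of an organ were taken as repeat measurements of 1 pair of pools, so that there was 1 replicate per diet and organ, no test was made, and differences were read without the spread between mice. Mice without LPS were not analysed here, so that the values describe both organs 6 h after LPS and not the response to it. In pooled tissue RNA, fewer cells of a type and less RNA per cell cannot be told apart.

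The respiratory chain sits in the inner mitochondrial membrane. Complexes I and II pass electrons from NADH and succinate to ubiquinone, complex III passes them on to cytochrome c, and complex IV passes them to oxygen. Complexes I, III and IV pump protons, and complex V uses the proton gradient to make ATP. All of the subunits measured here are encoded in the nucleus, several exist as tissue isoforms, and complex II is also an enzyme of the citric acid cycle. Liver is rich in mitochondria, whereas spleen consists mostly of lymphocytes, red cells and their precursors.

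Each of the 4 arrays held 43379 gene spots, of which 189 to 354 were left out as outliers and none was saturated. Between 55.2% and 66.8% of spots were well above background in Cy3, and between 66.5% and 72.8% in Cy5. The organ labels matched the tissues: all 14 measured hepatocyte genes of a fixed list were past 1.5-fold higher in liver, and all 7 measured B cell genes were past 1.5-fold higher in spleen. Genes of pancreatic acinar cells were lower in the nucleoprotein pool, by a median of -4.04 on the log2 scale in liver (15 of 15 past 1.5-fold on both arrays) and of -1.09 in spleen (14 of 15). Hepatocyte genes had a median diet ratio of 0.54 in spleen, with 6 of 14 past 1.5-fold.

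Each probe is a 60-base oligonucleotide, and the level given below is the log2 of its normalized intensity, a scale on which 1 unit is a 2-fold difference. Brightness depends on the probe as well as on the transcript, so levels were compared between organs and diets for 1 probe at a time. Probes of 1 gene that overlap in sequence show how much a shift along the transcript moves a value. They are printed 5′ to 3′ with the bases common to the set in capitals. The 3 probes of Ndufs6, a subunit of complex I, share 33 bases, run along the minus strand of chromosome 13 (mm7) and are open in 1 reading frame throughout.
A_51_P335077: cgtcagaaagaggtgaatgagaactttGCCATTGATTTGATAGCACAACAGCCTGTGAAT
A_51_P375034: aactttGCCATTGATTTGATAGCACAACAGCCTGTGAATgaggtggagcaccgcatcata
A_52_P685828: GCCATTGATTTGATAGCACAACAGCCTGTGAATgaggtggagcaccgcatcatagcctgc
The first of them, at chr13:70251861-70258918, a stretch that holds an intron, gave a liver minus spleen difference of 0.86, and the last, at chr13:70251833-70251892, gave 0.95. The middle probe had no organ difference because a spleen spot was left out.

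The overlapping probes of Ndufa12, an accessory subunit of complex I, differed more. They share 40 bases on the plus strand of chromosome 10 (mm7).
A_51_P458540: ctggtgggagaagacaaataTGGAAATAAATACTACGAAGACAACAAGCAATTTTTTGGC
A_51_P458538: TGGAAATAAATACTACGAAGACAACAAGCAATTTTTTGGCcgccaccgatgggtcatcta
The first, at chr10:93758922-93758981, gave a liver minus spleen difference of -0.32 ± 0.45 (SD of the 4 differences described below), and the second, at chr10:93758942-93759001, gave -0.03 ± 0.18. Their dye effects in liver (Cy5 over Cy3) were 0.17 and -0.16, and their diet ratios in liver 0.05 and 0.01. The other 4 overlapping pairs with both organ differences, from Atp5h, Cox7a2, Ndufa11 and Ndufs6, lay 0.07 to 0.13 apart.

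To compare the organs, the spleen level was subtracted from the liver level at the same dye and the same diet, which gives 4 differences per gene (control in Cy3, control in Cy5, nucleoprotein in Cy3, nucleoprotein in Cy5). The 4 values come from 1 pool per diet and organ and from 2 pairs of arrays. Control in Cy3 and nucleoprotein in Cy5 come from array 1 of both organs (pair 1), and the other 2 differences from array 2 (pair 2). Their SD describes the spread over dyes, diets and array pairs, which are not 4 independent measurements. A gene was called when all 4 differences passed 1.5-fold in the same direction. An organ value existed for 78 members, of which 77 were well above background in every channel. Ndufb2, Ndufb6 and Atp5l lost a spot on a liver array, and Cox8b and Cox8c, isoforms of a complex IV subunit, were not well above background in either organ.

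Most respiratory chain genes were brighter in liver. Of 78 members, 36 were called higher in liver and 1, Cox6a2, higher in spleen. Among all 19247 genes measured, 18.8% were called higher in liver and 25.1% higher in spleen. The median member difference was 0.69 (1.62-fold), against -0.08 over all genes. In all 4 differences 69 of 78 members lay above 0, against 7508 of 19247 over all genes. Of the 2003 genes as bright as most members (at or above the lower quartile of member levels), 18.2% were called higher in liver and 36.6% higher in spleen. Complex II stood highest with a median of 1.56, followed by complex I at 0.78, complex III at 0.67, complex IV at 0.51 and complex V at 0.34. The SD over the 4 differences had a median of 0.15 and ranged from 0.04 to 0.44. Differences on the control diet and on the nucleoprotein diet followed each other (Pearson r = 0.99 across 78 genes, which are not independent and share arrays), and they were nowhere more than 0.27 apart.

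**Figure D1:**
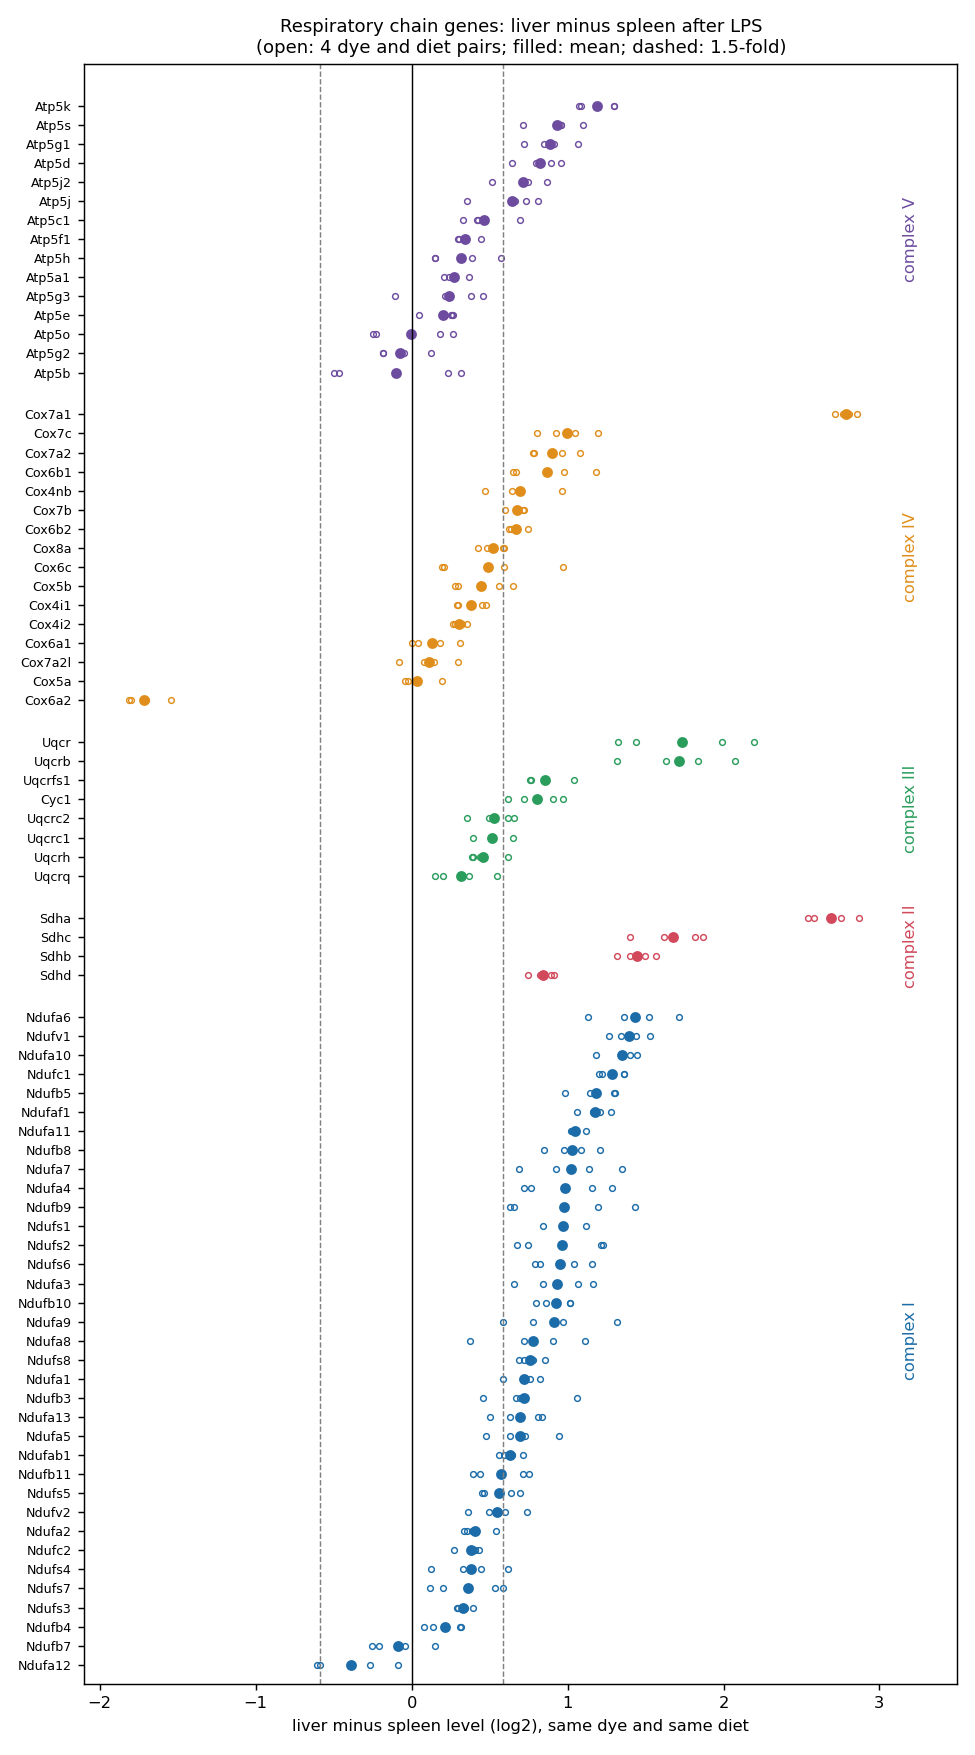
Liver minus spleen level (log2, horizontal axis) of the 78 members with a value, sorted within each complex; open circles are the 4 dye and diet pairs, filled circles their mean, and dashed lines 1.5-fold. Cox7a1 and Sdha stand farthest to the right at 2.78 and 2.69, and Cox6a2 is the one gene whose mean lies beyond the left dashed line, at -1.72.

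The size of the organ difference depended on how the arrays were scaled, while the median of the members stood above that of all genes under each scaling. With the authors' Feature Extraction signals 75 members were called higher in liver and 1 in spleen, against 28.4% and 31.2% of all genes. For this, each channel of these signals was shifted here to a common 75th percentile, a scaling that is not the authors'. With no scaling between arrays the counts were 9 and 1 of 78 members, against 10.9% and 38.5% of all genes, whose median moved to -0.44. The share of members called higher in liver was then close to that of all genes. Measured from the median of all genes, the members stood at 0.78 as reported and between 0.72 and 1.43 over all alternatives. Most members are bright, and bright genes moved with the scaling: the 2003 genes named above had a median of -0.40 as reported and 0.29 with the Feature Extraction signals. Measured from that median the members stood at 1.0994 as reported, and between 0.92 and 1.13 over the alternatives.

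**Figure D2:**
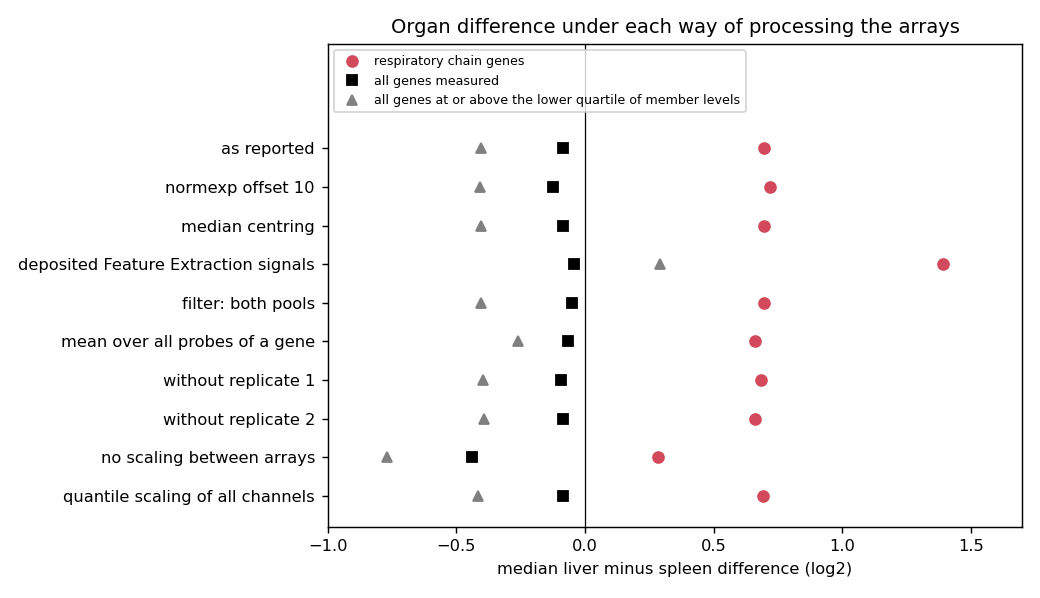
Median liver minus spleen difference (log2, horizontal axis) of the respiratory chain genes (circles), of all genes measured (squares) and of the 2003 genes at or above the lower quartile of member levels (triangles), for each way of processing the arrays (vertical axis). The circles lie to the right of both other medians in each row, although their position moves from 0.28 without scaling between arrays to 1.39 with the Feature Extraction signals.

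Complex I had 35 members with an organ value, of which 18 were called higher in liver (17 of 34 subunits, with Ndufa4 counted here by name, and the assembly factor Ndufaf1 at 1.18 ± 0.09) and none higher in spleen. Mean levels were 10.21 to 14.99 among its genes in liver, and 9.16 to 14.29 in spleen. The largest differences were those of Ndufa6, an accessory subunit, and Ndufv1, the core subunit that binds NADH and flavin mononucleotide. Ndufa6 levels in liver were 12.81 and 12.72 on the control diet (Cy3, Cy5) and 12.88 and 12.52 on the nucleoprotein diet, against 11.44, 11.20, 11.16 and 11.39 in spleen. Its difference was 1.43 ± 0.25 (2.70-fold), and the organs did not overlap. Ndufv1 stood at 13.64, 13.59, 13.65 and 13.48 in liver and at 12.29, 12.06, 12.21 and 12.21 in spleen. That gave 1.39 ± 0.11 (2.63-fold), again with no overlap.

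At the other end of complex I, 2 accessory subunits were not brighter in liver, a direction that turned with the Feature Extraction signals (Ndufa12 to 0.32, Ndufb7 to 0.78). Ndufa12 had liver levels of 13.01, 13.09, 13.24 and 12.93 and spleen levels of 13.62, 13.36, 13.32 and 13.52. Its difference of -0.39 ± 0.25 was below 0 in all 4 pairs but was not called. Ndufb7 differed by -0.09 ± 0.18 with overlapping organs. Of the 7 core subunits, which hold the redox centres and the parts that bind NADH and ubiquinone, 4 were called higher in liver, with a median of 0.76. Ndufs8 was called, but lay above 0 in only 10 of 11 ways of processing the arrays (lowest -0.03). The uncalled Ndufs3, Ndufs7 and Ndufv2 also lay above 0 in 10 of 11, with lowest values of -0.10, -0.06 and -0.14. Ndufs1, the largest of the iron-sulphur subunits, stood at 13.27, 13.15, 13.11 and 13.12 in liver and at 12.31, 12.02, 12.14 and 12.28 in spleen, a difference of 0.97 ± 0.12. Ndufa9, an accessory subunit, differed by 0.91 ± 0.31.

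All 4 genes of complex II were called higher in liver. Sdha encodes the flavoprotein that oxidises succinate. Its brightest probe read 12.43 and 12.76 on the control diet and 12.36 and 12.68 on the nucleoprotein diet in liver, and 9.89, 9.89, 9.79 and 9.92 in spleen. The difference was 2.69 ± 0.15, or 6.44-fold, and the lowest liver level was far above the highest spleen level. A second Sdha probe lies at chr13:71261221-71261280 on the minus strand (mm7), is open in 1 reading frame, and gave a smaller difference of 1.60 ± 0.45 that was called as well. It is shown, in lower case throughout, with the probes of the iron-sulphur subunit gene Sdhb and of Cox7a1, shown as a second gene of the complex and as the member with the largest difference.
Sdha A_52_P109503: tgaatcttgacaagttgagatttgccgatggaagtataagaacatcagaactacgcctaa
Sdhb A_51_P234853: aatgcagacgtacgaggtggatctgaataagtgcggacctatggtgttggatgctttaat
Cox7a1 A_51_P148612: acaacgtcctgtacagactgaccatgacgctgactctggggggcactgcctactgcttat
Sdhb read 13.80, 13.61, 13.73 and 13.55 in liver and between 12.22 and 12.23 in spleen in every channel, a difference of 1.44 ± 0.11 (2.72-fold). The membrane anchors Sdhc and Sdhd differed by 1.68 ± 0.21 and 0.84 ± 0.07. Sdhc stood at 11.96, 12.29, 12.31 and 12.02 in liver and at 10.57, 10.47, 10.44 and 10.40 in spleen. In no gene of the complex did the organs overlap.

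In complex III, 4 of 8 genes were called higher in liver, and all 8 lay above 0 in all 4 pairs. Uqcr and Uqcrb encode small subunits. Uqcr read 14.40, 13.93, 13.99 and 14.22 in liver and 12.20, 12.61, 12.55 and 12.23 in spleen, a difference of 1.74 ± 0.42 (3.33-fold). Uqcrb read 12.51, 12.87, 12.97 and 12.42 in liver and 10.88, 11.03, 10.90 and 11.10 in spleen, a difference of 1.71 ± 0.32 (3.28-fold). The catalytic subunits differed less. Cyc1, cytochrome c1, differed by 0.80 ± 0.16 and Uqcrfs1, the Rieske iron-sulphur protein, by 0.86 ± 0.13, and both were called. The core proteins Uqcrc1 (0.52 ± 0.11) and Uqcrc2 (0.53 ± 0.14) were not, nor were Uqcrh (0.46 ± 0.11) and Uqcrq (0.32 ± 0.18).

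Complex IV spread most widely, from -1.72 to 2.78, and both extremes were muscle-type isoforms. Of 16 members with a value, 6 were called higher in liver and 1 higher in spleen. Cox7a1, the muscle-type isoform of subunit VIIa, read 10.14, 9.96, 9.96 and 9.93 in liver and 7.29, 7.16, 7.20 and 7.22 in spleen. Its difference of 2.78 ± 0.06 (6.89-fold) was the largest of the members. Cox7a2, the isoform found in most tissues, differed by 0.90 ± 0.15, with liver at 13.86, 13.71, 13.86 and 13.67 and spleen at 12.90, 12.92, 12.78 and 12.89. Cox7a2l, a relative of VIIa that takes part in supercomplexes, differed by 0.11 ± 0.16, and its organs overlapped.

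Subunit VIa went the other way. Cox6a2, its muscle-type isoform, read 6.81, 6.83, 6.68 and 6.82 in liver and 8.62, 8.38, 8.49 and 8.53 in spleen. The difference was -1.72 ± 0.12, which is 3.28-fold higher in spleen, and Cox6a2 was called higher in spleen under all 11 settings. Cox6a1, the general isoform, differed by 0.13 ± 0.14, with organs that overlapped between 15.51 and 15.94 in liver and between 15.39 and 15.75 in spleen. Of 10 striated muscle markers on a fixed list, 5 had an organ value, with differences from -1.30 to 0.27, and 3 of these were called higher in spleen: Actc1 (-1.30 ± 0.32), Tnni2 (-1.26 ± 0.07) and Acta1 (-0.92 ± 0.10). Mb, Pvalb and Myh6 were not well above background in any channel, and Ckm in 2 of 8. Whether muscle RNA had a part in the Cox6a2 value was not tested. Of 8 fat cell markers, 7 had an organ value, from -0.93 (Cfd, called higher in spleen) to 4.08. Ucp1, the defining gene of brown fat, was not well above background in any channel. Cidec (4.08 ± 0.06), Fabp4 (1.66 ± 0.18) and Cidea (1.41 ± 0.30, in spleen well above background in 1 of 4 channels) were called higher in liver. Adipoq, the adiponectin gene, differed by -0.51 ± 0.22, Retn by 0.02 ± 0.16 and Plin (perilipin) by 0.01 ± 0.02, and none of these was called. Plin was not well above background in any liver channel. The part of fat cell genes in the Cox7a1 value was not tested.

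Cox6b1 and Cox6b2, the somatic and the testis isoform of subunit VIb, were both called higher in liver, at 0.87 ± 0.26 and 0.67 ± 0.05. Cox6b2 turned to -0.11 without scaling between arrays. Cox4i1, the general isoform of subunit IV, read 14.91, 14.83, 14.90 and 14.85 in liver and 14.62, 14.35, 14.45 and 14.55 in spleen, a difference of 0.38 ± 0.10 that was not called. Cox4i2, the isoform known from lung, was dim, at 6.51 to 6.58 in liver and 6.23 to 6.26 in spleen. Both liver arrays detected it above background in the nucleoprotein pool, and 1 of 2 arrays did so in each of the other 3 pools. Cox8a, the general isoform of subunit VIII, differed by 0.52 ± 0.08, and its relatives Cox8b and Cox8c read between 5.96 and 6.27 in all channels. The catalytic core of complex IV is encoded in mitochondrial DNA and no member by this rule. Among the subunits around it, Cox5a (0.04 ± 0.11), Cox5b (0.45 ± 0.19) and Cox6c (0.49 ± 0.37) were not called, whereas Cox7b (0.68 ± 0.06) and Cox7c (0.99 ± 0.17) were. Ndufa4, named for complex I and now known as a subunit of complex IV, differed by 0.98 ± 0.28 and was called.

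**Figure D3:**
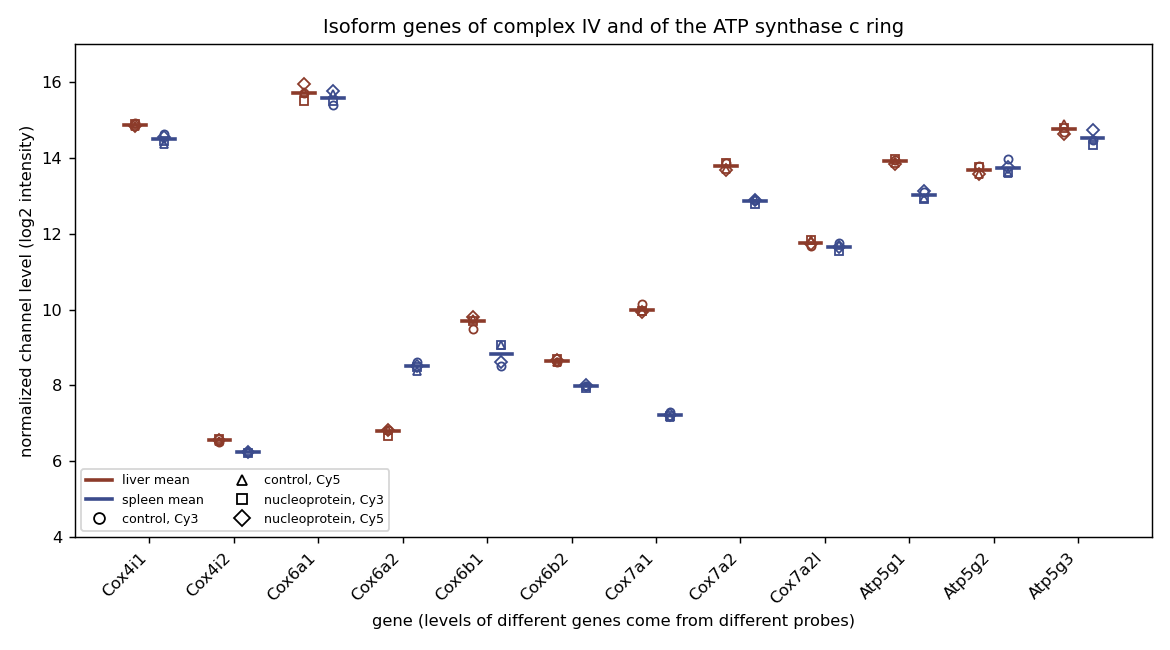
Normalized level (log2 intensity, vertical axis) of isoform genes of complex IV and of the 3 genes of the ATP synthase c ring in liver and spleen; symbols mark the 4 combinations of diet and dye and bars their mean. The organs are far apart for Cox7a1 (10.0 and 7.21) and, in the opposite order, for Cox6a2 (6.79 and 8.50), and overlap for Cox6a1, Cox7a2l, Atp5g2 and Atp5g3.

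ATP synthase differed least between the organs: 4 of 15 genes were called higher in liver (26.7%), 3 of them subunits. Among its 14 subunits with a value the share was 21.4%, near the 18.8% of all genes. The probes of ATP synthase were also the brightest in liver (median level 14.33), and those of complex IV, the next lowest in difference, the dimmest (12.27). Across members the organ difference had a Spearman correlation of -0.36 and a Pearson r of -0.06 with the liver level. The part of brightness in the order of the complexes was not tested. The F1 head, which carries the catalytic sites, had a median of 0.27 over its 5 genes, and only Atp5d (0.82) was called. Atp5a1, the alpha subunit, read 14.97, 14.9996, 14.66 and 14.99 in liver and 14.60, 14.79, 14.39 and 14.75 in spleen, a difference of 0.27 ± 0.07 with some overlap. Atp5b, the catalytic beta subunit, read 14.59, 14.49, 14.18 and 14.76 in liver and 14.28, 14.99, 14.64 and 14.52 in spleen, a difference of -0.10 ± 0.44 with overlap. The wide SD lay between the array pairs, with 0.32 and 0.24 on pair 1 and -0.50 and -0.46 on pair 2. The 3 probes of Atp5b gave -0.10, 0.11 and 0.65. Atp5c1, the gamma subunit of the central stalk, differed by 0.47 ± 0.16.

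The c ring, the rotor that protons turn, is built from 1 mature protein encoded by 3 genes. Atp5g1 was called higher in liver (0.89 ± 0.14), with 13.95, 13.85, 13.98 and 13.83 in liver and 13.10, 12.94, 12.91 and 13.12 in spleen. Atp5g2 (-0.07 ± 0.15) and Atp5g3 (0.24 ± 0.25) were not, and their organs overlapped. None of the 4 genes of the peripheral stalk was called. Atp5k, a small membrane subunit, had the largest difference of complex V at 1.19 ± 0.12 (2.28-fold), with 12.39, 12.56, 12.35 and 12.54 in liver and 11.10, 11.48, 11.26 and 11.25 in spleen. Atp5s, which is no subunit, followed at 0.93 ± 0.16.

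Of the 25 genes with several probes, 20 had at least 2 measured probes, and the call depended on the probe in 5. Ndufa3 gave 0.93 with its bright probe and -0.37 with a probe designed to a cDNA clone, which was well above background in spleen alone. Ndufb8 gave 1.03 and 0.27, again with the smaller value from a dim probe to a cDNA clone. Ndufa1 gave 0.72 and 1.00, Atp5s 0.93 and 0.54, and Ndufab1 between 0.63 and 1.04. In 6 genes the probes differed in sign: Atp5b, Atp5f1, Cox4nb, Cox5a, Ndufa3 and Uqcrq. Cox4nb gave 0.69 and -0.06. No probe of any member was called for diet.

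The genes around the chain were followed by 4 lists, whose counts stand beside 18.8% of all genes called higher in liver and 25.1% called higher in spleen. Of 14 citric acid cycle genes, 8 were called higher in liver and 2 higher in spleen, with a median of 1.04. The highest were Fh1, fumarate hydratase (2.74 ± 0.32), and Suclg2, a subunit of succinyl-CoA ligase (2.43 ± 0.09), whose reactions lie on either side of complex II in the cycle. The lowest were Idh3a (-1.69 ± 0.11), a subunit of isocitrate dehydrogenase, and Cs (-1.49 ± 0.09), citrate synthase. Idh2, Sucla2, Idh3b, Suclg1, Ogdh and Dld were also called higher in liver, with differences from 0.93 (Dld) to 2.35 (Idh2). Enzymes of 1 cycle thus differed in both directions.

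Electron carriers and their neighbours were split evenly, with 5 of 17 called higher in liver and 5 higher in spleen. The shares over all genes were 18.8% and 25.1%. Etfdh (3.32 ± 0.17) and Etfb (2.37 ± 0.16), which bring electrons from fatty acid oxidation to ubiquinone, were the highest, and Etfa, Coq9 and Coq7 were called too. Ucp2 (-2.53 ± 0.10), an inner membrane carrier named as an uncoupling protein, and Slc25a4 (-2.12 ± 0.04), an ADP/ATP carrier, were the lowest, and Dhodh, Atpif1 and Coq2 were also called higher in spleen. Of 23 assembly factors, 7 were called higher in liver and 2 in spleen (median 0.34). Foxred1 (1.41 ± 0.12) and Tmem126b (1.37 ± 0.13), both factors of complex I assembly, led, followed by 2810437L13Rik (now Cox19), Surf1, Nubpl, Cox15 and Cox18. 4930455C21Rik (now Timmdc1, -1.21 ± 0.08) and Sco1, a copper chaperone of complex IV (-0.82 ± 0.10), were the lowest. Of 5 further genes that carry a later Nduf or Atp5 name but another name in the files, 4733401H18Rik (now Ndufaf3, 0.89 ± 0.16) was called higher in liver and 1110007M04Rik (now Ndufaf4, -1.53 ± 0.18) higher in spleen.

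Among 14 regulators of mitochondrial gene expression, 2 were called higher in liver and 3 higher in spleen. These shares were no higher than the 18.8% and 25.1% of all genes. Tfb1m (1.07 ± 0.10), a mitochondrial rRNA methyltransferase, and the coactivator Ppargc1a (0.81 ± 0.14) were the highest. The related coactivators Pprc1 (-1.55 ± 0.24) and Ppargc1b (-0.79 ± 0.11) and the nuclear receptor Esrra (-1.06 ± 0.21) were called higher in spleen. Nrf1, a transcription factor known to act on respiratory chain promoters, differed by -0.56 ± 0.18 and Gabpa by -0.07 ± 0.10, and neither was called. No gene of the 4 lists was called for diet in either organ.

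Promoter windows were searched for the letters that 3 such factors are known to bind. RefSeq windows (GRCm38.p6) were found for 67 of 83 members, and the 250 bases before each start were searched on both strands. The NRF1 motif (GCGCA, then any base, then GCGC) was present in 19.4% of the 67 members (13 genes) and in 4.23% of all 27025 genes with a window. The GABP motif CCGGAAG was present in 19.4% of members (13 genes) and in 7.83% of all genes. The YY1 motif (AAGATGG followed directly by CGGC) was present in no member and in 0.248% of all genes. No member window held overlapping matches of 2 motifs. Members with the NRF1 motif had a median organ difference of 0.69 (13 genes, 5 called higher in liver) and members without it one of 0.71 (51 genes, 25 called). For the GABP motif the medians were 0.46 with it (11 genes, 4 called) and 0.72 without it (53 genes, 26 called), a difference that was not tested. The 100 bases before the start of Sdha and of Ndufb4 are shown because both genes had 3 NRF1 matches in 250 bases while their organ differences were 2.69 and 0.21. All 3 of Sdha and 2 of Ndufb4 fall in the part printed. The motif is in capitals, and both genes lie on the minus strand, at chr13:74350241-74350340 and chr16:37654369-37654468.
Sdha: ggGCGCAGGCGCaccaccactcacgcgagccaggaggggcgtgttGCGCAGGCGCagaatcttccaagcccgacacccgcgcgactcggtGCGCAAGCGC
Ndufb4: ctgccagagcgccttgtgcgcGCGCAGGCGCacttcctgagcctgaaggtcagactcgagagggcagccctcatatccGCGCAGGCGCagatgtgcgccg
A match is a description of these letters and was not examined for binding.

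The diet comparison asked whether dietary nucleoprotein changed these genes in mice given LPS, with the ratio of nucleoprotein over control averaged over the 2 dye orientations. No member was called, that is, none passed 1.5-fold in the same direction on both arrays, in liver (78 measured) or in spleen (80 measured). Among all genes 0.32% of 16540 were called in liver and 0.452% of 18378 in spleen. By the brightest probe of each gene, no member passed 1.5-fold on a single array either, as against 2.74% of all genes in liver and 0.974% in spleen. The largest member ratio of 1 array by these probes was 0.43 in liver and 0.42 in spleen. The median member ratio was -0.02 in liver and -0.01 in spleen, against 0.0149 and -0.0007 over all genes. With 1 pool per diet the variation between mice is unknown, so these arrays do not show that the diets were alike.

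In liver Atp5a1 read 0.02 on array 1 and -0.33 on array 2, a mean of -0.16 ± 0.25 (1.11-fold). Cox6b1 (0.14 ± 0.25) and Cox4nb (0.14 ± 0.23) were the highest. In spleen Atp5e, the epsilon subunit of the F1 head, read -0.03 and -0.27, a mean of -0.15 ± 0.17 (1.11-fold), and Atp5j, a subunit of the peripheral stalk, read 0.13 and 0.06, a mean of 0.10 ± 0.05. With 2 orientations the SD of a diet ratio is fixed by the dye effect, being its size times the square root of 2. The mean was larger than this SD in 14 members in liver (17.9%, against 25.5% of all genes) and in 13 in spleen (16.2%, against 30.9%).

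By complex, the liver ratios had medians of -0.02 in complex I, -0.05 in complex II, -0.06 in complex III, 0.00 in complex IV and -0.03 in complex V. In spleen they were -0.005, -0.06, -0.01, -0.01 and -0.03. Below 0 were 47 of 78 members in liver (60.3%, against 41.5% of all genes) and 48 of 80 in spleen (against 50.5% of all genes). By complex, from I to V, 20 of 35, 3 of 4, 7 of 8, 7 of 16 and 10 of 15 lay below 0 in liver, and 21 of 37, 3 of 4, 5 of 8, 8 of 15 and 11 of 16 in spleen. All 5 genes of the F1 head lay below 0 in liver, with a median of -0.08, and 4 of 5 in spleen, with a median of -0.10. In each organ 1 of the 5 was below 0 on both arrays, Atp5c1 in liver (-0.11 and -0.13) and Atp5e in spleen. In complex III, 1 gene lay below 0 on both liver arrays, Uqcrc2 (-0.16 and -0.02). The lowest and highest ratios of the other complexes in liver were those of Ndufc2 (-0.10 ± 0.05) and Ndufb5 (0.07 ± 0.18) in complex I, Sdha (-0.07 ± 0.45) and Sdhc (0.04 ± 0.02) in complex II, and Cyc1 (-0.11 ± 0.31) and Uqcrb (0.00 ± 0.13) in complex III. In spleen they were Ndufa3 (-0.08 ± 0.12) and Ndufa9 (0.08 ± 0.29), Sdhc (-0.10 ± 0.10) and Sdhb (0.01 ± 0.01), and Uqcrh (-0.12 ± 0.42) and Uqcrq (0.05 ± 0.02). These are values of the brightest probe of each gene. The second Uqcrq probe lay farther out, at -0.28 in liver and 0.12 in spleen. In complex IV, Cox7a1 was lowest in liver (-0.11 ± 0.15), and Cox7a2l (-0.13 ± 0.05) and Cox6a1 (0.09 ± 0.38) were the extremes in spleen. Atp5h (0.09 ± 0.09) was the highest of complex V in liver.

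The 2 orientations rarely gave the same sign. In liver 17 of 78 members (21.8%) had the same sign on both arrays, against 34.1% of all genes, and in spleen 18 of 80 (22.5%), against 40.3%. Among the 2003 bright genes the shares were 25.8% and 30.0%. Of the members with the same sign, 10 were below 0 and 7 above in liver, against 2244 below and 3398 above over all genes. In spleen 14 were below and 4 above, against 3671 and 3734 over all genes. Across members the ratio on array 1 ran against the ratio on array 2, with r = -0.74 (Spearman -0.71) in liver and r = -0.58 (Spearman -0.60) in spleen. Over all genes r was 0.10 and 0.06, and Spearman -0.48 and -0.25. These are descriptions across genes that share the same arrays. A part of the ratio that turns its sign when the dyes are exchanged cancels in the mean of the 2 arrays.

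**Figure D4:**
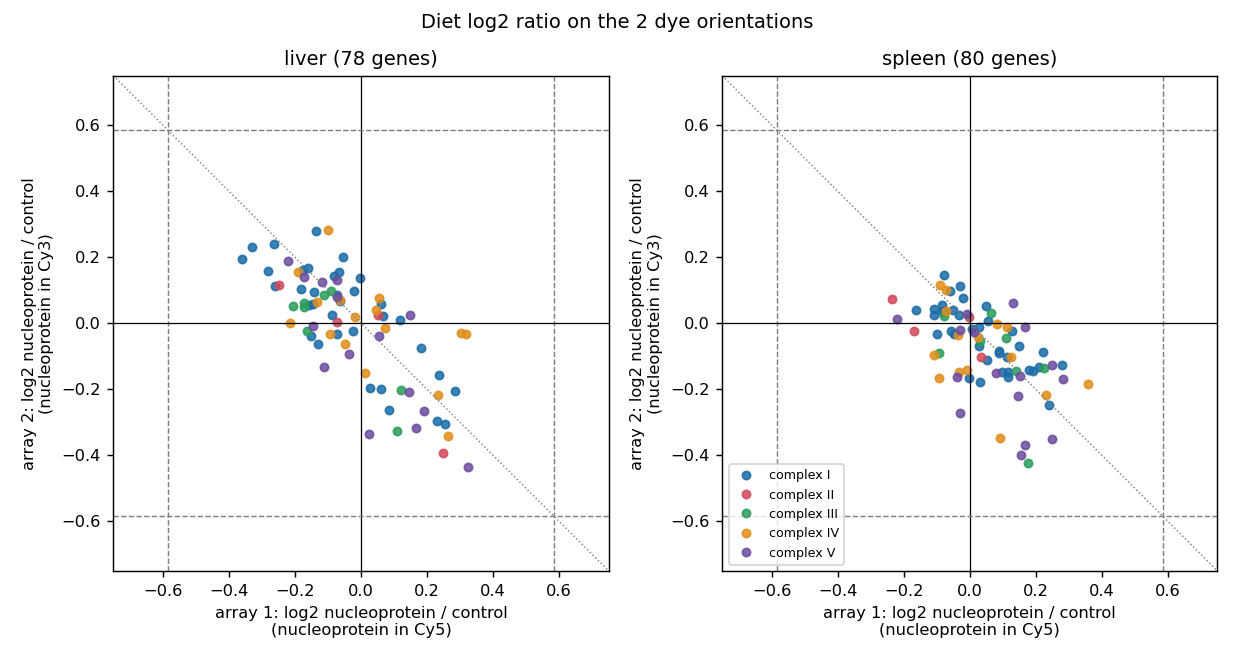
Diet ratio (log2 nucleoprotein over control) of each member on array 1 (horizontal axis) and on array 2 with the dyes exchanged (vertical axis), for liver and spleen; colours mark the complexes, dashed lines 1.5-fold and the dotted line equal and opposite values. The points lie along the dotted line, inside the dashed lines, with r = -0.74 in liver and -0.58 in spleen.

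The dye effect, the mean of red over green on both arrays, was therefore followed as a quantity of its own. No member passed 1.5-fold in the same dye direction on both arrays, against 0.441% of all genes in liver and 0.0218% in spleen. The median size of the dye effect was 0.11 in liver and 0.08 in spleen, and that of the diet ratio 0.05 and 0.035. Over all genes the sizes were 0.09 and 0.07 for dye, and 0.05 and 0.05 for diet. Over the 2003 bright genes they were 0.15 and 0.10 for dye, both above the members, and 0.06 and 0.05 for diet. Atp5d had the highest value in liver, 0.38 (0.27 in spleen), and Ndufs5, an accessory subunit of complex I, the lowest, -0.28 (-0.07 in spleen). In spleen Uqcrh was highest at 0.30 (0.16 in liver) and Sdhd lowest at -0.15 (-0.04 in liver).

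The median dye effect of the members was -0.05 in liver (33 of 78 above 0) and 0.05 in spleen (51 of 80 above 0). Across the 77 members measured in both organs the dye effect correlated between liver and spleen with r = 0.61 (Spearman 0.58). Over 15526 genes r was 0.49. These arrays share the slide and the probes. The sign was the same in both organs in 51 of these 77 members, a count given without a share over all genes. The brightest probes of all 5 genes of the F1 head had a mean dye effect above 0 in both organs, with medians of 0.23 and 0.27. Over all genes 9070 of 16540 lay above 0 in liver and 10335 of 18378 in spleen. Atp5c1 was near 0 in liver, at 0.01, with -0.11 on array 1 and 0.13 on array 2. Other probes of the F1 head genes were not above 0 in both organs. The second Atp5a1 probe had -0.01 in liver and -0.04 in spleen, and the other 2 probes of Atp5b had 0.11 and 0.10 in liver and -0.20 and -0.23 in spleen. Complex V as a whole had a median of 0.03 in liver and 0.12 in spleen. In complex I the medians were -0.07 and 0.02, and in complex III -0.10 and 0.06. The GC content of the probes and their dye effect had r = 0.01 across 99 member probes and r = -0.16 across 22191 probes.

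**Figure D5:**
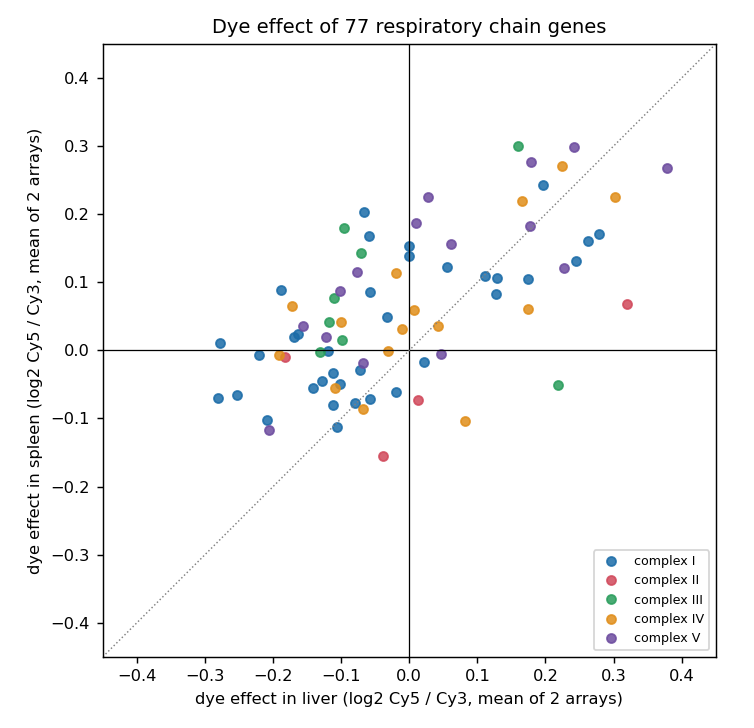
Dye effect (log2 Cy5 over Cy3, mean of both arrays) of the 77 members measured in both organs, in liver (horizontal axis) and in spleen (vertical axis), coloured by complex; the dotted line marks equal values. The points rise along the dotted line (r = 0.61), and the brightest probes of all 5 genes of the F1 head are above 0 on both axes, Atp5c1 barely so in liver (0.01).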

How the data were processed

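RNA of pooled livers or spleens was measured on 4 two-colour Agilent mouse arrays of 1 slide. Spot intensities, processed signals (background-subtracted and dye-normalized) and their log10 ratio of red over green were deposited by the authors as scanner output. The submitters' processing notes name Agilent Feature Extraction 9.5.3.1. A deposited value table holds the linear red over green ratio of the same arrays (column medians -0.92, 0.92, -0.96 and 0.96). Every value of array 1 carries a minus sign there, for a reason that is unknown, and the table served as a check only.

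Mean signals were background-corrected (normexp, offset 50), loess-normalized within arrays with control and outlier spots at weight 0, and Aquantile-scaled between arrays (limma 3.58.1, R 4.3.3). A gene counted as measured in an organ when both arrays placed it well above background in the pool of at least 1 diet, and its brightest probe stood for it. No test was made: a call was 1.5-fold in 1 direction on both arrays, or in all 4 organ differences. The calculation was tested on simulated data. Probe positions are on mm7 per the file headers. Genes named were those called for diet or dye, the 2 highest and 2 lowest organ differences and the extreme diet ratios of each complex, fixed lists of subunits, isoforms and neighbouring pathways, and genes whose probes disagreed; further subunits and markers named were chosen after their values were seen. Members and lists were chosen with earlier results of these data known. The labels' growth protocol mentions chow, whereas the design text gives the purified diet used here. Alternatives tried were the offset, median centring, the Feature Extraction signals, scaling between arrays, the detection filter, the mean over probes, a 2-fold threshold and leaving out each replicate. Levels from the Feature Extraction signals were shifted to a common 75th percentile of the gene spots in each channel.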

Additional observations from a re-analysis of the deposited data

Results flagged for a closer look

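Ndufa4 had a diet ratio above 0 on both liver arrays (mean 0.04 ± 0.03) and below 0 on both spleen arrays (-0.04 ± 0.02), a gap of 0.0851 on the log2 scale between the organs. Sdhc showed the same order, with 0.04 ± 0.02 in liver, -0.10 ± 0.10 in spleen and a gap of 0.1342. They were singled out because both arrays of an organ moved one way and both arrays of the other organ the opposite way; the difference between the organs was not tested, each organ being 1 pair of pools, and none of these ratios came near 1.5-fold.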

How the results depend on the processing

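No member was called for diet in either organ under the alternatives run. With median centring in place of loess, 76 members in liver and 76 in spleen passed 1.5-fold for dye. These counts have no share over all genes beside them and are not read as a trait of the members. The liver diet median was then 0.35 (0.37 for the 2003 bright genes), and 20 of 78 members were called higher in liver, against 14.4% of all genes. No other alternative gave a dye call. With the Feature Extraction signals 75 members were called higher in liver, against 28.4% of all genes, with a median difference of 1.39. Without scaling between arrays 9 were called, against 10.9% of all genes, with a median of 0.28, and Cox6b2 turned to -0.11. At 2-fold, 13 of 78 members were called higher in liver, against 12.6% of all genes. The mean over all probes gave a median of 0.66. Leaving out 1 replicate gave 41 of 78 to 46 of 81 members higher in liver, against 20.8% to 21.2% of all genes. It gave 1 to 2 members higher in spleen, against 27.5% to 27.9% of all genes. The median difference was then 0.66 to 0.69. Diet medians were -0.07 to 0.03 in liver and -0.06 to 0.03 in spleen, with dye and diet no longer separated. Of 1944 values of the 55 named genes under the alternatives, 1581 moved by less than the SD. Among these 55 genes Cox6b2 was the one called value that changed sign. Among their values called or not, the sign changed in 15 of 476 organ differences (8 genes: Atp5b, Atp5g2, Cox4nb, Cox5a, Cox6b2, Cox7a2l, Ndufa12 and Ndufb7), 135 of 734 diet ratios and 105 of 734 dye effects. Outside the 55, the called organ difference of Ndufs8 also turned, to -0.03. The uncalled differences of Atp5o, Ndufb4, Ndufs3, Ndufs4, Ndufs7 and Ndufv2 turned as well. With the Feature Extraction signals Atp5b was 0.86 and Atp5g2 0.70; without scaling between arrays Cox4nb was -0.16. The causes were not tested. No paired analysis was possible because no result comes from a test. Signal over background limits Cox4i2, Cox8b and Cox8c.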
